A study of Mus musculus with 11 samples.

Results

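The genes described here encode the ligands and receptors of the endothelin and adrenomedullin systems, 10 genes of the 36666 listed in the gene count table. They are Edn1 and Edn3 (ligands), Ece1 (converting enzyme), Ednra and Ednrb (receptors), Adm (ligand), Calcrl (receptor) and Ramp1, Ramp2 and Ramp3 (receptor partners). They were found by their symbols. The set was selected on values measured in the comparison of Polg mutator with control mice that is described below, so the levels and group differences of these genes are a description and no independent test of them. Cerebral poly(A)+ RNA was sequenced from 11 male C57/Bl6 mice aged 1 year, 1 library per mouse. The 7 mutators were homozygous for the D257A knock-in allele of Polg, the mitochondrial DNA polymerase, which lacks proofreading. The 4 controls were 3 WT/WT mice and 1 WT/D257A mouse, so 1 control also carried the mutant allele. The mice came from crosses of WT/D257A heterozygotes, and the allele is present in every cell of the body from conception, so no cell type is singled out by the model.

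Endothelins are short vasoactive peptides that are cut from longer precursors, the last step being made by endothelin-converting enzyme. In the brain they come from endothelial cells, neurons and glia, and act through a receptor on vascular smooth muscle that constricts vessels (ETA, from Ednra) and a receptor of endothelial cells and astrocytes (ETB, from Ednrb). Adrenomedullin is a vasodilator peptide made by endothelial and other cells. Its receptor is the product of Calcrl, which reaches the cell surface only together with a receptor activity-modifying protein: with RAMP1 it binds calcitonin gene-related peptide (CGRP), and with RAMP2 or RAMP3 it binds adrenomedullin.

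Depth, taken as the sum of gene counts, lay between 28249345 and 121182250 counts per mouse. Levels are given as CPM, that is, counts scaled to library size with edgeR's TMM factors, which lay between 0.974 and 1.02. Of the 36666 genes, 17983 passed edgeR's filter on low counts, and all 10 genes described here passed it. Gene counts came to between 0.744 and 0.775 per aligned read that the authors list for 10 of the mice and to 3.00 for mutator mouse 248, so values without this mouse are given beside the results. The libraries were pooled in lanes and the sources used here do not say which mouse was in which pool, and the part of the pools in the results was not tested. The tissue label was checked against brain markers: summed over the listed genes, 8 neuron markers stood at 6051 to 6705 CPM and 10 astrocyte markers at 4056 to 4646 CPM in the 11 mice.

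The mature endothelins are encoded by stretches of 63 bases, and those of the 3 endothelin genes are shown to tell apart the ligand that was higher in the mutators (Edn1) from the others. Capitals mark the codons of the 4 cysteines, which are joined in pairs in the peptide. The sequences were read from GENCODE transcripts of mm9 and lie in the coding part of exon 2 of each transcript, on the plus strand.
Edn1 (Edn1-201, chr13:42399018-42399080): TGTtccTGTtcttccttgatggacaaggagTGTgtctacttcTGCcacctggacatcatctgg
Edn2 (Edn2-001, chr4:119834556-119834618): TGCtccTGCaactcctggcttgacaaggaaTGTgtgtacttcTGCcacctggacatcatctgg
Edn3 (Edn3-001, chr2:174587250-174587312): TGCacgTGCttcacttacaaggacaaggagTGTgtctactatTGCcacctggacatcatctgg
The Edn1 and Edn3 stretches had 50 of 63 bases in common. In the precursor of 202 codons that Edn1-201 encodes, the stretch took codons 53 to 73.

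Edn1 was the gene of this set with the largest difference, and it was higher in every mutator than in every control. It encodes endothelin-1 (ENSMUSG00000021367, chr13:42396639-42403358 of mm9, plus strand, 5 exons). In the controls, Edn1 stood at 1.93, 2.21 and 1.24 CPM in WT/WT mice 205, 239 and 246 and at 2.49 CPM in the WT/D257A mouse, 237. In the mutators, Edn1 ranged from 4.29 CPM in mouse 207 to 8.00 in mouse 236, with a median of 6.68 (n = 7). The groups did not overlap, and mutators 207 and 217 (4.55 CPM) were the nearest to the controls. These levels rest on 34 to 236 reads per control mouse and 225 to 732 per mutator mouse. The mean rose from 1.97 ± 0.54 CPM (SD, n = 4) to 6.32 ± 1.47 CPM (SD, n = 7). In the edgeR fit the difference was 3.16-fold, or 1.66 on the log2 scale (standard error 0.20, 95% interval 1.24 to 2.09, edgeR adjusted p = 0.00094). In that fit Edn1 had rank 7 of the 17983 genes by p-value. Without mouse 248 the log2 fold change of Edn1 was 1.60 (edgeR adjusted p = 0.00095).

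Edn3, which encodes endothelin-3, a ligand that acts mainly through ETB, was at 4.93 to 6.20 CPM in the controls and at 4.38 to 6.55 CPM in the mutators. The groups overlapped over nearly their whole range, and the log2 fold change was 0.05 (95% interval -0.18 to 0.27, edgeR adjusted p = 0.88). Edn2, the third endothelin gene, had between 0 and 7 reads per mouse and was below the filter. The converting enzyme gene Ece1 was at 52.0 to 59.0 CPM in the controls and 49.5 to 60.1 CPM in the mutators, with a log2 fold change of -0.02 (95% interval -0.14 to 0.10).

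The 2 endothelin receptor genes had group means that lay close together. Ednra, the gene of the constricting receptor, was at 4.15 ± 0.17 CPM in the controls (SD, n = 4) and 3.97 ± 0.78 CPM in the mutators (SD, n = 7), with a log2 fold change of -0.06 (95% interval -0.34 to 0.22). The mutators spread on both sides of the controls: 2 lay above the highest control and 3 below the lowest. The coefficient of variation of Ednra was 19.7% in the mutators and 4.07% in the controls, a difference that was not tested. These spreads rest on 121 to 504 reads per control and 103 to 431 per mutator mouse, and both include counting noise. Ednrb was at 52.0 ± 4.3 CPM in the controls and 52.1 ± 7.4 CPM in the mutators, with 2 mutators above and 2 below the control range. Its log2 fold change was under 0.01 in size, with a 95% interval from -0.20 to 0.20.

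Adm, which encodes adrenomedullin (ENSMUSG00000030790, chr7:117771175-117773331, plus strand, 4 exons), was the other ligand that was higher in the mutators. In the controls, Adm was at 1.59, 1.04 and 1.13 CPM in WT/WT mice 205, 239 and 246 and at 1.86 CPM in the WT/D257A mouse. In the mutators it ranged from 1.94 CPM in mouse 249 to 4.30 in mouse 236, with a median of 2.64 (n = 7). All 7 mutators were above all 4 controls, but mutator 249 lay only just above the WT/D257A mouse. The counts behind these values were 31 to 194 per control and 72 to 369 per mutator mouse. The mean rose from 1.40 ± 0.39 (SD, n = 4) to 3.04 ± 0.84 CPM (SD, n = 7), which the fit put at 2.15-fold, or 1.10 on the log2 scale (standard error 0.21, 95% interval 0.66 to 1.55, edgeR adjusted p = 0.0134). The call was lost when WT/WT mouse 239 or 246, the 2 lowest controls, was left out (log2 fold changes of 0.97 and 1.04, edgeR adjusted p = 0.0591 and 0.0564). Without mouse 248 the log2 fold change of Adm was 1.03 (edgeR adjusted p = 0.024).

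Ramp3, whose product makes the Calcrl receptor bind adrenomedullin, was lower in the mutators (ENSMUSG00000041046, chr11:6558524-6577478, plus strand, 4 exons). In the controls, Ramp3 was at 17.0, 14.6 and 17.4 CPM in WT/WT mice 205, 239 and 246 and at 18.9 CPM in the WT/D257A mouse. In the mutators it ranged from 12.4 CPM in mouse 211 to 15.4 in mouse 249, with a median of 13.8 (n = 7). The groups overlapped, since mouse 249 was above control mouse 239, and the other 6 mutators were below every control. The mean was 17.0 ± 1.8 CPM in the controls and 13.5 ± 1.1 CPM in the mutators (SD, n = 4 and 7), and the difference was -0.33 on the log2 scale (standard error 0.08, 95% interval -0.49 to -0.17, edgeR adjusted p = 0.0375). The count of Ramp3 reads was 480 to 2073 per control and 514 to 1155 per mutator mouse, so this smaller difference rests on more reads than that of Edn1 or Adm. The call was lost in 7 of 11 fits that left out 1 mouse. Without the WT/D257A mouse the log2 fold change was -0.27 (edgeR adjusted p = 0.215), without control 205 it was -0.33 (edgeR adjusted p = 0.0512) and without control 246 it was -0.32 (edgeR adjusted p = 0.116). Without mutators 211, 236, 240 or 248 it was -0.31, -0.34, -0.33 and -0.31 (edgeR adjusted p = 0.0753, 0.0527, 0.0724 and 0.0719).

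The other receptor partners were not called. Ramp1, the partner for CGRP, was at 51.0 ± 3.2 CPM in the controls and 46.2 ± 3.2 CPM in the mutators (SD, n = 4 and 7), and 4 of 7 mutators lay below the lowest control. Its log2 fold change was -0.14 (95% interval -0.26 to -0.02, edgeR adjusted p = 0.229). Ramp2, the other partner for adrenomedullin, was at 11.5 to 14.5 CPM in the controls and 10.3 to 14.5 CPM in the mutators, with a log2 fold change of -0.08 (95% interval -0.26 to 0.11). Calcrl, the receptor gene that all 3 partners share, was at 5.66 to 7.05 CPM in the controls and 4.85 to 8.18 in the mutators, with a log2 fold change of 0.08 (95% interval -0.18 to 0.34). Without mouse 248 the log2 fold changes of the 7 genes that were not called lay between -0.12 (Ramp1, edgeR adjusted p = 0.358) and 0.05 (Calcrl), and those of Ednra, Ramp2 and Edn3 were -0.10, -0.04 and 0.03.

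**Figure D1:**
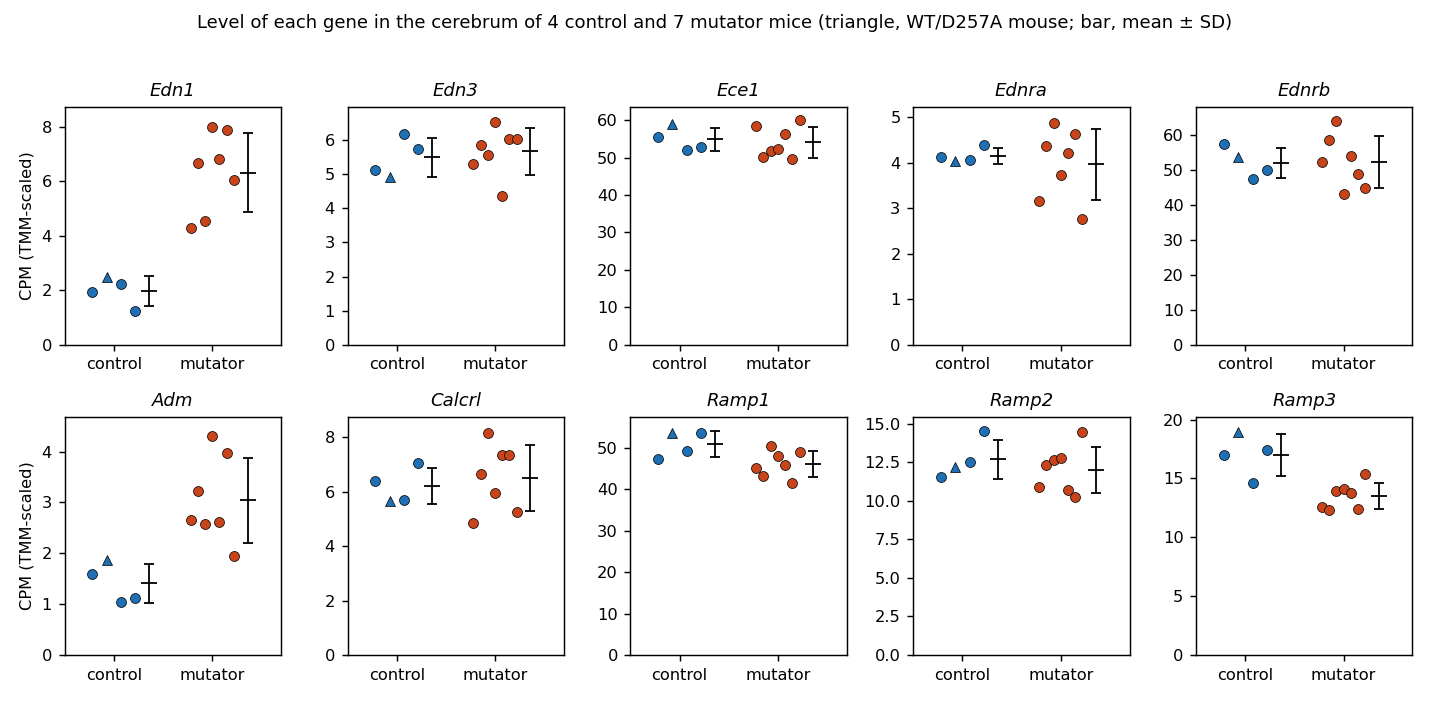
CPM (linear axis from 0) of each of the 10 genes in each mouse, with controls in blue and mutators in red. Circles are WT/WT or mutator mice, the triangle is the WT/D257A mouse, and the bars at the right of each group are the mean and SD over 4 or 7 mice. Edn1 and Adm are the panels in which all 7 mutators lie above all 4 controls, and in the Ramp3 panel 6 of 7 lie below them.

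Of the 10 genes, 3 had an edgeR adjusted p under 0.05, where 1.24% of all genes tested had one. In the upward direction these were Edn1 and Adm, where 0.439% of all genes were called, and in the downward direction Ramp3, where 0.801% were called. The groups did not overlap for Edn1 and Adm, as for 2.62% of all genes. Since the set was chosen on this comparison, these shares are given as the background only. The median log2 fold change was -0.01 over the 10 genes and 0.001 over all genes tested, and 5 of the 10 were above 0. In a bulk sample, a difference in the number of cells that express a gene and a difference in RNA per cell cannot be told apart.

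The levels of different genes were compared per kilobase of exon. In the controls, Ramp1 was the highest at 16.9 ± 1.0 CPM per kilobase (SD, n = 4), above the range of the next gene. Ednrb (12.9 ± 1.1), Ramp3 (12.3 ± 1.3) and Ece1 (10.3 ± 0.6) followed, with overlap between neighbours in their ranges over mice. Ramp2 (3.84 ± 0.39) lay apart from Ece1 above it and from Edn3 (1.34 ± 0.14) below it. Edn3, Calcrl (1.27 ± 0.13), Adm (1.01 ± 0.28), Edn1 (0.839 ± 0.229) and Ednra (0.758 ± 0.031) formed the low end, again with overlap between neighbours. Per length, the level of the receptor gene Ednrb was above that of either ligand gene, Edn1 or Edn3, and the level of Calcrl was below that of each of its 3 partners. In the mutators, Edn1 stood at 2.70 ± 0.63 and Adm at 2.19 ± 0.61 CPM per kilobase (SD, n = 7). In them Edn1 had between 1.83 and 3.41 CPM per kilobase and Edn3 between 1.06 and 1.59. In the controls Edn1 was at 0.527 to 1.06 and Edn3 at 1.20 to 1.51. On this measure the order of these 2 ligands differed between the groups. In CPM without length their ranges overlapped in the mutators (Edn1 4.29 to 8.00, Edn3 4.38 to 6.55). The level of Ramp2 is uncertain, because 1103 of its 3301 exon bases are shared with Vps25 on the same strand. The lengths count every annotated exon, also those with few reads. In the WT/WT controls, noncoding stretches of Edn3 of 461 and 535 bases took 0.386% and 0.688% of its reads. A noncoding stretch of Ednra of 1823 bases took 3.04% of its reads. The places of Edn3 and Ednra in the order thus depend on the annotation. The length of Ramp3 includes stretches of 44 and 63 bases that had 0 reads in the exon files, so its place beside Ednrb is uncertain too.

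The other genes of both pathways did not pass the test. The list held 25 further genes: other ligands, processing enzymes, peptidases that degrade the peptides, G proteins and phospholipases. Of these, 24 were in the table (Ackr3 under its older symbol Cxcr7), 19 were tested and 0 were called by edgeR or in any of its 19 alternatives, DESeq2 among them, and 0 had an unadjusted p under 0.05. The endothelin part of the list had a median log2 fold change of -0.02 over 12 genes tested and the adrenomedullin and CGRP part one of 0.09 over 8. The largest differences among them were those of Calcr, the calcitonin receptor (log2 fold change 0.58, standard error 0.40, edgeR adjusted p = 0.525), and Calca, which encodes calcitonin and CGRP (0.17, standard error 0.21). Next came Gpr182, a receptor gene listed with the adrenomedullin part (0.13, standard error 0.13), and Mme, neprilysin (0.10, standard error 0.07). Calcr had 1.85 ± 1.11 CPM in the controls and 2.93 ± 1.09 in the mutators, so the groups were less than 1 SD of the controls apart. The processing enzymes Furin (log2 fold change -0.01), Pcsk7 (-0.03), Ece2 (0.09) and Pam (under 0.01 in size) were near 0, as were the G protein genes Gnaq (0.06), Gna11 (-0.03) and Gnas (-0.01). Edn2, Kel, Adm2, Calcb and Iapp had too few reads to be tested.

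**Figure D2:**
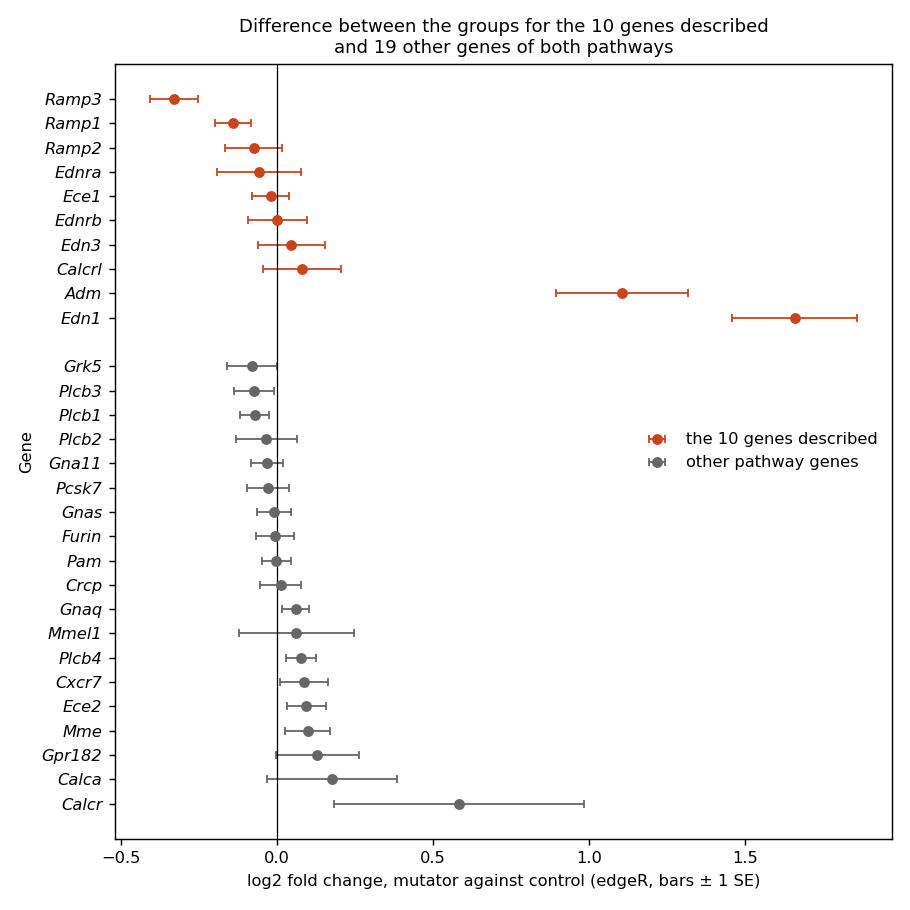
Log2 fold change of mutators against controls for the 10 genes described (red) and for the 19 other pathway genes that were tested (grey), with bars of 1 standard error from the edgeR fit. Edn1 at 1.66 and Adm at 1.10 stand to the right and Ramp3 at -0.33 to the left, while the highest grey point, Calcr at 0.58, has the widest bar.

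Levels of other lists are given beside these results. Among 16 genes known to be induced by low oxygen, 1 was called (Vegfa, log2 fold change 0.38, edgeR adjusted p = 0.0266, named after its value was seen), where 1.24% of all genes tested were called. Above 0 were 14 of the 16, and 9072 of all 17983 genes tested. An unadjusted p under 0.05 was found for 5, or 31.2% (15.8% of all genes tested). The median log2 fold change of the 16 was 0.13. Their summed level was 1368 to 1417 CPM in the controls and 1433 to 1626 CPM in the mutators, without overlap and with the same range without mouse 248, whereas 0 of the 16 were called without it. How often such sums of other genes do not overlap was not computed, so the lack of overlap is a description only. Pgk1 (means of 425 and 442 CPM, log2 fold change 0.06) and Ldha (233 and 231 CPM, -0.01) weigh most in this sum. Slc2a1, which was not called, went from 97.8 ± 6.2 to 124.9 ± 30.8 CPM (SD, n = 4 and 7). Of 12 endothelial markers 0 were called (2 without mouse 248) and 5, or 41.7%, had an unadjusted p under 0.05, as 15.8% of all genes tested had. Of these 5, Kdr (log2 fold change 0.84), Flt1 (0.36) and Pecam1 (0.20) were higher in the mutators. Tie1 (-0.29) and Slco1a4 (-0.15) were lower, and all 5 were named after their values were seen. Of the 12, 7 were above 0 and the median log2 fold change was 0.04. The summed level of the 12 was 292 to 369 CPM in the controls and 302 to 382 in the mutators (302 to 358 without mouse 248). Of 12 mural cell markers 1 was called (Abcc9, log2 fold change 0.64), where 1.24% of all genes tested were called. An unadjusted p under 0.05 was found for 4, or 33.3% (15.8% of all genes tested). Of these 4, Abcc9 and Kcnj8 (0.27) were higher in the mutators, and Acta2 (-0.53) and Cspg4 (-0.17) were lower. All 4 were named after their values were seen. Of the 12, 5 were above 0 and the median log2 fold change was -0.08. Their summed levels were 251 to 274 CPM in the controls and 250 to 287 CPM in the mutators (250 to 274 without mouse 248). Of 6 platelet markers tested, 2 were called (Ppbp and Tubb1, named after their values were seen), where 1.24% of all genes tested were called. In the controls these 2 had means of 0.0613 and 0.00605 CPM and in the mutators 0.627 and 0.335. They had 1 to 65 and 0 to 34 reads per mouse. Their place among the genes tested rests on reads of the mutators, so the calls are a description only. Of the 6, 4 had an unadjusted p under 0.05. Summed levels over 7 markers were 3.74 to 5.64 CPM in the controls and 4.95 to 9.73 in the mutators. Erythrocyte markers (5 tested, 0 called, all above 0) summed to 57.5 to 198 and 89.6 to 256.8 CPM. The part of any of these lists in the levels of Edn1, Adm and Ramp3 was not tested.

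No marker was called among those of astrocytes (10 tested), neurons (8), oligodendrocytes (8), microglia (8), choroid plexus (7) and meninges (7), in which 3, 2, 4, 4, 3 and 1 genes had an unadjusted p under 0.05, where 15.8% of all genes tested had one. All 8 microglia markers were below 0, with a median log2 fold change of -0.13 and summed levels of 250 to 312 CPM in the controls and 235 to 285 in the mutators. Choroid plexus markers summed to 521 to 701 and 536 to 764 CPM, meningeal markers to 54.5 to 66.7 and 52.5 to 70.8 CPM, and oligodendrocyte markers to 5178 to 5894 and 5048 to 7038 CPM, each with overlap. Mbp, with means of 2869 and 3133 CPM, weighs most in the oligodendrocyte sum. Of those 8 markers, 3 were above 0, and the median log2 fold change was -0.16. The 4 with an unadjusted p under 0.05 were lower in the mutators: Mag (-0.31), Mog (-0.26), Cnp (-0.25) and Cldn11 (-0.17), named after their values were seen.

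The exon files of 3 WT/WT and 7 mutator mice show where along each transcript the reads fell. In them, each gene is split into bins at every annotated exon boundary, and bin levels are given as CPM of the bin total. All 5 bins of Edn1, each of them 1 exon, were higher in all 7 mutators than in all 3 controls. Over all bins tested, 2.22% had groups that did not overlap in either direction, and since bins of 1 gene share its level and the genes were chosen on it, this is given as the background only. Bin 2, which holds the endothelin-1 stretch printed above, went from 0.168 ± 0.041 to 0.715 ± 0.204 CPM (SD, n = 3 and 7). The ratio of the means was lowest in bin 1 (2.74), which is mostly 5′ untranslated, and highest in bin 3 (5.17). Bin 1 took 16.9% of the Edn1 reads in the controls and 12.7% in the mutators. In Adm, 3 of 4 bins were higher in all 7 mutators than in all controls and bin 2 in 6 of 7, with ratios between 2.30 and 2.60. Within Ramp3, bins 4 and 5, which took 16.3% and 82.1% of its reads in the controls, had lower means in the mutators, with ratios of 0.709 and 0.833. Bin 4 was lower in all 7 mutators than in all 3 controls, and in bin 5 the groups overlapped. Without mouse 248 the ratios were 2.69 to 5.03 for Edn1, 2.21 to 2.49 for Adm, and 0.732 and 0.841 for bins 4 and 5 of Ramp3. Bins 1 and 2, the first exon, had 0 reads in all 10 mice, and 38 of 44 and 63 of 63 of their bases are shared with Gm11978 on the opposite strand. The kit used does not mark strand, so reads of Ramp3 and Gm11978 could not be told apart there.

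Usage of a bin relative to the rest of its gene, which the choice of genes did not use, was tested over all bins. Of 143 bins of the 10 genes, 109 were tested and 0 were called by edgeR's diffSpliceDGE or by limma, and 1 had an unadjusted p under 0.05. Ramp2 is merged with Vps25 in the exon counts, so usage of its 27 tested bins was relative to both genes. From bin 21 on, all bases of the Ramp2 bins are shared with Vps25, and their reads cannot be credited to Ramp2. Over all 206930 bins tested, 0.0237% were called and 1.90% had an unadjusted p under 0.05. Without mouse 248, 0 bins of the 10 genes were called. The log2 change in usage lay between -0.48 and 0.38 over the 5 bins of Edn1, between -0.17 and 0.004 over the 4 bins of Adm and between -0.20 and 0.04 over the 2 bins of Ramp3 tested. Bin 12 of Edn3, 45 bases of its 3′ untranslated region, was the 1 with the small unadjusted p: its share of Edn3 reads was 5.16% in the controls and 3.75% in the mutators (log2 usage change -0.60, edgeR adjusted p = 1). The bins of Edn1 had 3 to 268 reads per mouse.

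**Figure D3:**
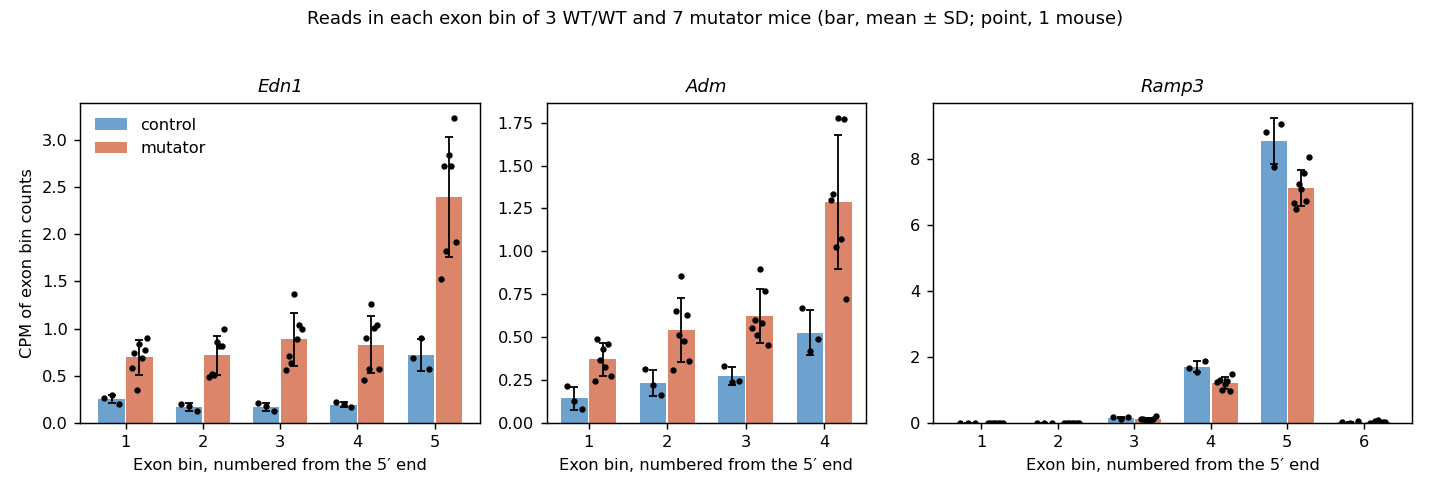
CPM of exon bins of Edn1, Adm and Ramp3, numbered from the 5′ end, in 3 WT/WT (blue) and 7 mutator (red) mice. Bars are means with SD and points are single mice. Each Edn1 bin is higher in the mutators, bins 4 and 5 of Ramp3 are lower, and Ramp3 bins 1 and 2 are at 0.

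The transcripts expressed could also be read from the bins. Ece1 has 6 bins upstream of bin 7, the first that all 5 of its transcripts contain. Of these, bin 2 had the most reads (1.46% of the gene in the controls), bins 1 and 3 had 0.307% and 0.551%, and bins 4, 5 and 6 had 0.059%, 0.0953% and 0.0108%. In Ednra, bin 4, which is 1823 bases long and noncoding, took 3.04% of reads in the controls, while bin 1, with the 3′ end, took 50.1%. Bin 3 of Ednra is partly shared with 4933431K23Rik on the opposite strand and had at most 6 reads per mouse. In Edn3, bin 13, the last part of the longest 3′ untranslated region, took 30.1% in the controls and 27.0% in the mutators. Ramp1 had 61.7% of its reads in the last bin, and its alternative bin 4 had 0.654% in the controls and 0.656% in the mutators.

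How the genes varied among mice of the same group was examined after each group's mean log2 CPM (prior count 2) was subtracted, since these deviations do not hold the group difference that chose the genes. Of 45 pairs, 1 had a permutation p that passed adjustment over the 45. Ednra and Calcrl, both receptor genes, rose and fell together (Pearson r = 0.906, permutation p = 0.0009, adjusted p = 0.0405; Spearman rho = 0.936, adjusted permutation p = 0.0072; n = 11). Mutators 249 and 207 were low in both and mutator 217 high in both. Without 249 and 217, the mice farthest from the median of Ednra, r was 0.914. The adjusted permutation p was over 0.05 in 8 of 11 fits that left out 1 mouse (up to 0.209 without mutator 217), with r between 0.876 and 0.942, and without mouse 248 it was 0.164 (r = 0.897). Both genes have low counts, 103 to 504 for Ednra and 194 to 782 for Calcrl.

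Of the other pairs, Ednra and Ece1 (r = -0.774, adjusted permutation p = 0.249), Ramp1 and Ramp3 (r = 0.726, 0.249) and Ramp1 and Ramp2 (r = 0.703, 0.327) came next and did not pass. The 2 ligands that were higher in the mutators, Edn1 and Adm, had r = 0.575 (permutation p = 0.0871, adjusted p = 0.56; rho = 0.627). Mutators 211, 236 and 248, WT/WT mouse 205 and the WT/D257A mouse were above their group mean in both, and mutators 207, 217 and 249 and WT/WT mouse 246 were below it in both.

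**Figure D4:**
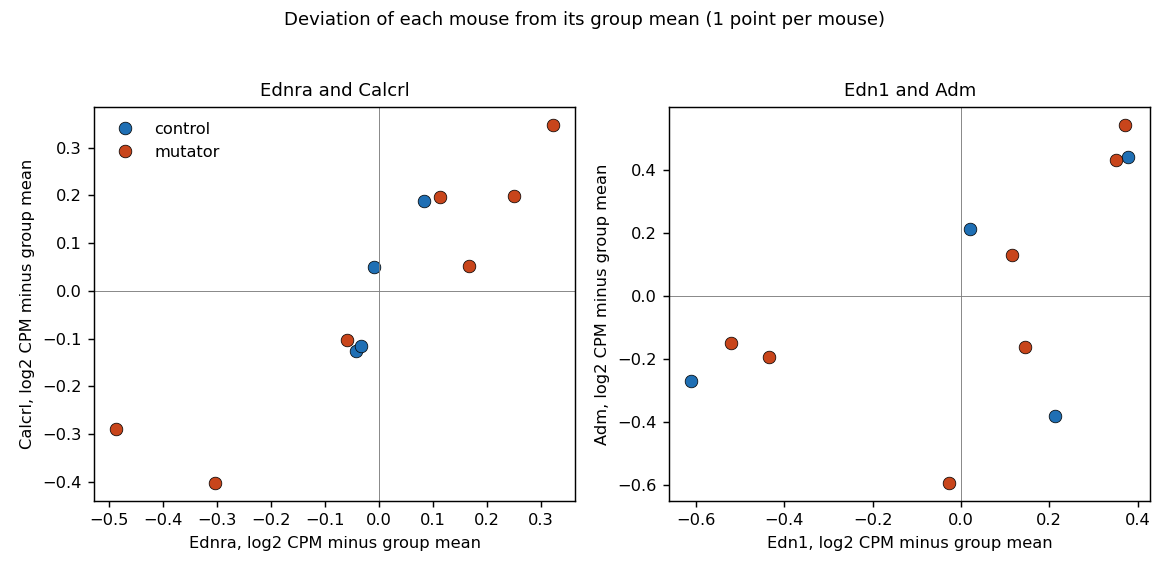
Deviation of log2 CPM from the group mean for Ednra against Calcrl (left) and Edn1 against Adm (right), with 1 point per mouse, controls in blue and mutators in red. The left panel shows the pair with r = 0.906, in which 2 mutators lie low in both genes, and the right panel the pair with r = 0.575.

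The genes of the whole table whose deviations were most like those of the called genes are named by their r over 11 mice among 17982 genes, as a description without a test. The genes share the libraries and their depth. For Edn1 they were Mmachc (0.920), Fras1 (0.914), AC158537.1 (0.895), Gm15328 (0.894) and C030005K06Rik (0.887). For Adm they were Slc15a3 (0.916), Wbscr25 (0.905), SNORA71.3 (0.899), Gm6924 (0.891) and Serpind1 (0.872), of which Wbscr25 (0.162 CPM) and Gm6924 (0.570 CPM) had few reads. For Ramp3 they were Tmem38a (0.962), Zhx2 (0.929), St6galnac4 (0.927), Hps4 (0.924) and Slc25a23 (0.922). None of the 15 had an edgeR adjusted p under 0.05 between the groups, and none was another of the 10 genes.

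The promoters of the called genes are shown because Edn1 and Adm were higher together while Ramp3 was lower. They run from 250 bases before to 50 after the start (RefSeq, GRCm38.p6, a later build than that of the files, plus strand). Of the 10 genes, 9 had an entry, and Ramp2 had none. Capitals mark matches, on either strand, of 4 motifs. The core of the hypoxia response element was searched as ACGTG and, in its other form, as GCGTG. The other motifs were TGACTCA, bound by AP-1, and AGATAA, bound by GATA factors.
Edn1 (chr13:42301226-42301525): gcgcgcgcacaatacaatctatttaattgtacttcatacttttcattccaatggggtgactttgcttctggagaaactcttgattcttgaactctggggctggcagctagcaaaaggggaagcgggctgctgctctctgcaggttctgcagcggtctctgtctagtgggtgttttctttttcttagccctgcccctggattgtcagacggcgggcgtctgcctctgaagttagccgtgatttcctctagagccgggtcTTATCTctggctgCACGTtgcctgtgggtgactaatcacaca
Adm (chr7:110627407-110627706): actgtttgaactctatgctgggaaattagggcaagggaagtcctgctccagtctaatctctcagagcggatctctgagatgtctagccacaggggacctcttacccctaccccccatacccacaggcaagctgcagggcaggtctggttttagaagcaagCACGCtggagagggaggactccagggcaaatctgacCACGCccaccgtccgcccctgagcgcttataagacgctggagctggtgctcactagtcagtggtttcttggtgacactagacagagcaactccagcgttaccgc
Ramp3 (chr11:6658283-6658582): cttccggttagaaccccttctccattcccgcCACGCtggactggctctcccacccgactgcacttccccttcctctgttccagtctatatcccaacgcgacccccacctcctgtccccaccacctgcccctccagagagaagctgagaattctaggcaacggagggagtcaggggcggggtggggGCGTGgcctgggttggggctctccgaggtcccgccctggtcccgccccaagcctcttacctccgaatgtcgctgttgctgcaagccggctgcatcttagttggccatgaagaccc
On the minus strand Edn1 had AGATAA from position 9 and ACGTG from position 22 after the start, the first transcribed base being 1. Adm had GCGTG on the minus strand from positions -90 and -54. Ramp3 had GCGTG on the minus strand from position -219 and on the plus strand from -65. No matches overlapped each other, and TGACTCA was not in these 3 windows. Variants of the AP-1 and GATA motifs were not searched, so sites of another form are not excluded. Of 32851 promoters of this length, 19.6% hold ACGTG, 32.4% GCGTG and 43.8% either, 11.2% hold AGATAA and 5.2% TGACTCA. Of the 9 genes with an entry, Adm, Calcrl, Ece1, Edn1, Ednrb and Ramp3 had ACGTG or GCGTG in at least 1 promoter. Counted by promoter, as the shares above are, 8 of the 12 promoters of these 9 genes held either form, a difference that was not tested.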

How the data were processed

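Poly(A)+ RNA of the cerebrum of 11 mice was sequenced with paired reads. Alignment to mm9 was done by the authors with TopHat 2.0.6 and Bowtie2. They counted reads per Ensembl gene with HTSeq and deposited raw counts per gene for all mice and raw counts per exon bin for 10. Whether strand was used in counting is not given in the sources used here. The authors' own comparison tables (fold changes and p-values from DESeq and DEXSeq) were not used, and their table of read totals served only to compare depths. All per-sample columns of the gene table were used. Reads in no bin, 20.6% to 23.4% of the exon counts, were left out.

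The 10 genes, the lists and the tests were chosen with earlier results of these data known. For genes, edgeR 4.0.16 (R 4.3.3) was run on all 11 mice without covariates, using filterByExpr, TMM and a robust quasi-likelihood fit. P-values were adjusted by Benjamini-Hochberg over 17983 genes, with a threshold of 0.05. DESeq, which the study used, was not used here. Standard errors were derived from the F statistic. For exon bins, diffSpliceDGE compared 3 WT/WT with 7 mutator mice, its coefficients being divided by the natural log of 2, and limma 3.58.1 was the alternative. Pairs of genes were correlated over 11 mice with 100000 permutations within groups, 2-sided. The alternatives for genes were DESeq2 1.42.0, other normalizations (RLE, upper quartile), other filters (none, or a mean count of 10 or more), leaving out the WT/D257A mouse or the mitochondrial genes, and library size as covariate. For bins a mean count filter of 10 and leaving out merged gene groups were tried, and for correlations RLE and a prior count of 0.5. Each mouse was left out in turn. The functions were tested on simulated data. Gene coordinates, exon lengths and bin annotation are those of GENCODE vM1 on mm9, a later release than the authors' Ensembl 61, and bin numbers matched the files for all 10 genes. Promoters are RefSeq's of GRCm38.p6. The genes named are all 10, of the other pathway genes those called and the 4 with the largest differences, and the 5 genes nearest to each called gene. Further pathway genes were named after their values were seen.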

Additional observations from a re-analysis of the deposited data

Results flagged for a closer look

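The gene counts per listed aligned read of mutator mouse 248 stood apart from those of the other mutators, with a gap to the nearest of 0.988 of the whole range (Dixon's ratio, 7 mice). The count was 3.00 per aligned read in this mouse and 0.744 to 0.772 in the other mutators. Of 22 groups of values tested in this way, the 10 genes in both groups of mice and this ratio, 1 was above the critical value, and chance gives about 1 in 20. None of the 20 groups of CPM of the 10 genes was above it. Mouse 248 had the second highest Edn1 (7.88 CPM) and Adm (3.97 CPM) of the mutators and the lowest Ramp1 (41.6 CPM), Ramp2 (10.3 CPM) and Ece1 (49.5 CPM).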

How the results depend on the processing

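Edn1 was called in all 19 alternatives, with log2 fold changes of 1.53 to 1.77 and adjusted p-values up to 0.00708. Adm was called in 17 (0.97 to 1.25) and Ramp3 in 11 (-0.40 to -0.27, adjusted p up to 0.215). The 19 hold 1 fit 2 times, since the 3 WT/WT controls only and the fit without the WT/D257A mouse are the same. Ramp3 was not called in that fit. The other 7 genes were called in none. The count of called genes among the 10 was 1 to 3 when each mouse was left out in turn, with 1 without WT/WT mouse 246, and 2 or 3 otherwise. The counts for the other pathway genes and for exon bin usage were 0 throughout. The count of correlated pairs was 0 to 1 when a mouse was left out and 1 under RLE normalization or a prior count of 0.5; the cause was not tested. Over all genes, 223 were called by edgeR, 615 by DESeq2, 346 without a filter and 50 with the 3 WT/WT controls only. Of the lists, the hypoxia-induced genes and oligodendrocyte markers had 0 to 3 called, the platelet markers 1 to 3, the endothelial and astrocyte markers 0 to 2, the mural cell markers 1 to 2, the neuron and choroid plexus markers 0 to 1, and the others 0. No paired analysis was possible because the labels give the mice no replicate numbers that the groups share. Libraries of 28249345 counts leave Edn1 and Adm with 34 and 31 reads, which limits their precision there, and pool, litter and strand could not be entered in the fits.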
